A study of Saccharomyces cerevisiae with 17 samples.

Results

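The general stress response genes of Saccharomyces cerevisiae are described here across 17 RNA sequencing libraries. The members are a list of 36 stress genes of the Msn2 and Msn4 type, with MSN4 itself among the 36. They were found by name among the 7125 features of the expression table, in which every listed name was present. All 17 libraries come from BY4741, a haploid lab yeast with mating type a that needs leucine, histidine, methionine and uracil, or from deletion strains made in it. Cultures were grown with 7.2 mM phosphate, washed, and kept for 60 min at 7.2 mM or at 0 mM phosphate. Experiment 1 held BY4741 at 7.2 mM (libraries 11, 10 and 13) and at 0 mM (14, 16 and 17), a strain lacking SPL2 at 7.2 mM (7 and 18) and at 0 mM (12, 19 and 20), and a strain lacking BMH1 at 7.2 mM (library 2). Experiment 2 held BY4741 (B) and a strain lacking RRP6 (C and D), both at 7.2 mM. Experiment 3 held BY4741 (A-1) and BY4741 ΔP (A-3), which lacks block P of the SPL2 promoter, both at 7.2 mM. Values below are given in this order of libraries. The overnight culture that started a strain's cultures was split between the phosphate levels, so libraries may share a parent culture, and which of them do is not given.

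When a yeast cell is starved, heated, dried or exposed to oxidants, the zinc finger proteins Msn2 and Msn4 enter the nucleus and switch on a common set of genes. They bind the stress response element, a short run of guanines after an adenine, in the promoters of these genes. In cells growing on plentiful glucose, protein kinase A and the TOR pathway keep both factors in the cytoplasm, and 14-3-3 proteins such as Bmh1 and Bmh2 are known to bind partners phosphorylated by such kinases. The genes switched on encode chaperones, catalase, hydrophilins, enzymes of glycerol and carbohydrate metabolism, and wall and mitochondrial proteins. Spl2 is a small regulator of the low-affinity phosphate carriers, and Rrp6 is an exonuclease of the nuclear exosome.

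The promoters of 3 well known members and of the member with the smallest change without phosphate are shown beside the element that Msn2 and Msn4 bind. The list was chosen for stress genes of the Msn2 and Msn4 type, so its share of promoters with the element is no independent finding. Each stretch runs 5′ to 3′ on the strand of its gene, from 450 to 151 bases before the start codon, in RefSeq's R64 assembly. The expression table has no coordinates and names no assembly, so gene names alone link the 2 sources. Capitals mark AGGGG or its reverse complement CCCCT. The stretch of HSP12 lies at chrVI:106806-107105 on the plus strand and holds 5 matches. That of CTT1 lies at chrVII:654184-654483 on the plus strand and holds 2. That of DDR2 lies at chrXV:231906-232205 on the minus strand and holds 3. That of TKL2 lies at chrII:476588-476887 on the minus strand and holds 0, its single match lying 77 bases before the start codon.
HSP12: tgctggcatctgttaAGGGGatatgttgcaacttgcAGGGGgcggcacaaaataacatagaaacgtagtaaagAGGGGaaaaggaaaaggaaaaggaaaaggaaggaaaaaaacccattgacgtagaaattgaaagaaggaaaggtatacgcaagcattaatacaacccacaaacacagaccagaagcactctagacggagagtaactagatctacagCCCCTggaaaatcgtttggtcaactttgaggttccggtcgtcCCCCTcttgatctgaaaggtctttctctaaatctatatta
CTT1: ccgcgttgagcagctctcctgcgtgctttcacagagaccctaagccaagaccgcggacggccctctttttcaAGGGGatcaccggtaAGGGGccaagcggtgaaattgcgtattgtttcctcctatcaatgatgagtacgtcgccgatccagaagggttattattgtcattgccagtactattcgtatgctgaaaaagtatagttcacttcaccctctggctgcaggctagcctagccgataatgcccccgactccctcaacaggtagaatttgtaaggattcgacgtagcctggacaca
DDR2: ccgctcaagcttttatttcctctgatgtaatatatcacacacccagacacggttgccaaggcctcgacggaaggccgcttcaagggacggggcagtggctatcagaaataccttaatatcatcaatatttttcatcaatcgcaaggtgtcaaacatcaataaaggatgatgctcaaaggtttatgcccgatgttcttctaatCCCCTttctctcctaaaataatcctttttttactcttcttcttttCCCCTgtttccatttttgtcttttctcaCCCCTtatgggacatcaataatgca
TKL2: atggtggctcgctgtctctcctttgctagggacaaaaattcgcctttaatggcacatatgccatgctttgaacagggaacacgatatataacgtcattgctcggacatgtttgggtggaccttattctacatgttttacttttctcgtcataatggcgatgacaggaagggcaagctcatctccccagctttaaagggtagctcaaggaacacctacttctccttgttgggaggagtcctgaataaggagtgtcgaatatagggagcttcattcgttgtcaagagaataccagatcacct

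Over the 500 bases before the start codon, read on both strands, 31 of the 36 members (86.1%) held AGGGG at least at 1 place, against 34.1% of 6000 windows of the same length before annotated genes. With 2 or more matches the shares were 61.1% (22 members) and 8.13%. The windows of PAI3 and SIP18, divergent neighbours with 650 bases between them, overlap. Their matches at 286 and 267 bases for PAI3 and at 369 and 388 bases for SIP18 are the same sites, counted for both genes. The 5 members without a match were HSP30, DAK1, ALD2, GRE1 and MSN4. CACGTG, the core of the Pho4 site of phosphate genes, was in 0 of the 36 windows and in 6.23% of all windows. GAANNTTC, a unit of the heat shock factor site, was in 8 member windows (22.2%) and in 19.2% of all. AGGGG and CACGTG cannot overlap each other, and each can share no more than an end base with GAANNTTC. These matches describe the sequence and say nothing of binding. No member overlapped another annotated gene in R64. ALD2 and ALD3 are adjacent copies with 91.8% identical coding bases and a shared run of 329 bases, so the reads of both are uncertain. The other 17 pairs of related genes examined shared runs of at most 35 bases.

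Values are RPM, the reads of a feature scaled to a common library total, and between 17456154 and 44667485 reads stood behind each library. The coefficient of variation between libraries of a group had a median over the members from 3.38% to 8.02%. Single members spread more. HSP12 reached 29.4% in rrp6, DDR2 26.7% in spl2 at 7.2 mM and XBP1 21.3% in BY4741 at 7.2 mM of experiment 1. Every member passed the filter on low values in every comparison, so 36 of 36 were tested throughout. The deletions were visible in the reads. SPL2 was at 0 reads in both spl2 libraries at 7.2 mM and at 0, 0.210 and 0.0247 RPM in those at 0 mM, BMH1 was at 1.46 RPM in the bmh1 library against 996.2 RPM in BY4741, and RRP6 was at 0 reads in both rrp6 libraries. Markers of mating type a summed to 958.3 to 2090 RPM and those of mating type alpha to 29.9 to 58.0 RPM. Glucose-repressed genes, which mark exhausted glucose, summed to 311.9 to 477.1 RPM over all libraries.

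**Figure D1:**
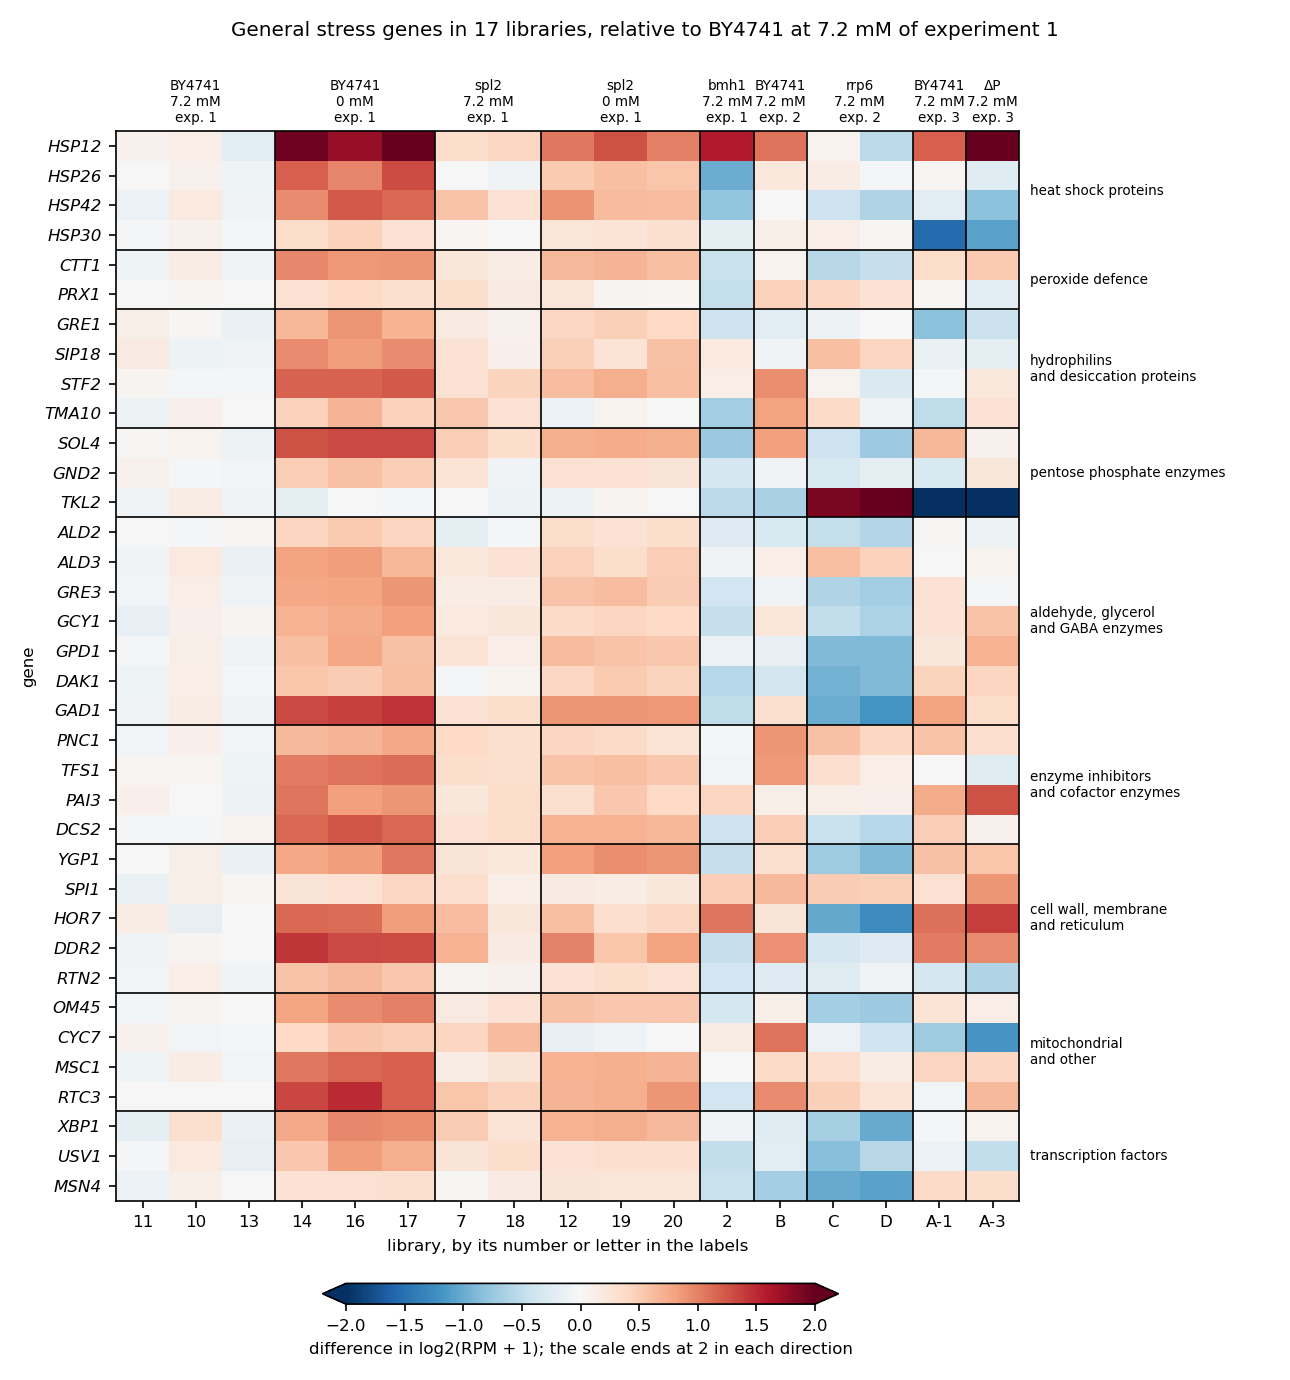
Difference of each of 36 genes (rows, by role) from its mean in BY4741 at 7.2 mM of experiment 1, in log2(RPM + 1), for the 17 libraries (columns, by group). The 3 BY4741 libraries at 0 mM are higher for 35 genes, the spl2 libraries at 0 mM are paler, and the rrp6 libraries are mostly lower than BY4741 of experiment 2, with TKL2 as the strongest exception.

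The first comparison asked how the members responded in BY4741 to 60 min without phosphate. Of the 36 members 35 rose and 0 fell, and the only member that did not pass was TKL2. Together they took 0.244%, 0.247% and 0.232% of all reads with phosphate and 0.489%, 0.488% and 0.490% without. Because RPM is a share of the whole culture's RNA, more responding cells and more RNA in each cell cannot be told apart. The background was high: of 6015 features tested, 60.9% passed higher and 6.68% lower. The median change was 0.85 on the log2(RPM + 1) scale for the members and 0.21 for all features. That shift of the median gene is shared by most features, and under scaling by the trimmed mean of M values (TMM), which removes it, 32 members rose and 1, TKL2, fell, against 1088 features higher and 1226 lower. PRX1, SPI1 and MSN4 no longer passed with that scaling. The members exceeded the median gene in 35 of 36 cases, and 12 of them rose by 1 or more on the log2(RPM + 1) scale, as did 1.26% of all features.

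Among the heat shock proteins, all 4 rose. HSP12 encodes a small protein that associates with membranes. It stood at 222.3, 228.8 and 179.5 RPM with phosphate and at 809.7, 705.0 and 933.0 RPM without. The groups were far apart, and the change was the largest of all members, 3.88-fold (log2 1.95 ± 0.101 SE, adjusted p = 6.08e-10). The small chaperones HSP26 and HSP42 rose 2.27-fold and 2.17-fold, from means of 33.4 ± 2.22 and 49.3 ± 5.95 RPM (SD, n = 3). HSP30, a plasma membrane protein acting on the proton pump, rose from 16.5 to 21.7 RPM, 1.32-fold.

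Both peroxide defence genes and all 4 hydrophilin genes rose. CTT1, the cytosolic catalase, was at 22.8, 26.9 and 23.1 RPM with phosphate and at 48.1, 44.9 and 45.3 RPM without, 1.90-fold higher (log2 0.90 ± 0.0655 SE, adjusted p = 4.08e-08). PRX1, a mitochondrial peroxiredoxin, stood at 76.7, 78.1 and 76.9 RPM and then at 95.8, 102.4 and 96.4 RPM. Its groups did not overlap, but its change of 1.27-fold (log2 0.34 ± 0.0619 SE, adjusted p = 0.000263) lay close to the median gene, with an adjusted p of 0.172 under TMM. STF2, a hydrophilin that protects dried cells, moved from 94.1, 88.5 and 89.6 RPM to 206.0, 206.5 and 212.8 RPM. Its change of log2 1.19 ± 0.0529 (SE) had the smallest adjusted p after that of GAD1, 1.01e-10. TMA10, the related gene of STF2, rose from 19.4, 22.7 and 20.9 RPM to 29.2, 34.1 and 29.3 RPM, 1.47-fold. SIP18 and GRE1, another related pair of hydrophilins at low levels, rose 2.17-fold and 1.76-fold.

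The enzymes of the pentose phosphate route split. SOL4, a phosphogluconolactonase, rose from 13.6, 14.1 and 12.3 RPM to 33.5, 34.6 and 34.5 RPM, 2.57-fold (log2 1.30 ± 0.0654 SE, adjusted p = 4.26e-10). GND2, the minor phosphogluconate dehydrogenase, rose by log2 0.52. TKL2, the minor transketolase, was at 20.4, 24.0 and 20.5 RPM with phosphate and at 18.8, 21.4 and 21.0 RPM without. Its groups overlapped, and its log2 change of -0.08 ± 0.0765 (SE, adjusted p = 0.361) became -0.28 with TMM, where it passed as lower (adjusted p = 0.00629).

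All 7 enzymes of aldehyde, glycerol and GABA metabolism rose. GAD1, glutamate decarboxylase, went from 43.4, 50.5 and 43.6 RPM to 116.2, 119.6 and 126.1 RPM, 2.63-fold (log2 1.38 ± 0.0603 SE, adjusted p = 8.42e-11). The other 6 moved less. DAK1, dihydroxyacetone kinase, rose from 134.5, 155.7 and 138.6 RPM to 210.3, 203.6 and 217.3 RPM, 1.47-fold. The aldose reductase gene GRE3 rose 1.77-fold, the aldehyde dehydrogenase genes ALD3 and ALD2 1.74-fold and 1.39-fold, the glycerol dehydrogenase gene GCY1 1.69-fold, and GPD1, which makes glycerol phosphate, 1.58-fold.

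Among inhibitors and cofactor enzymes, all 4 rose. DCS2, which acts on the scavenger decapping enzyme Dcs1, rose from 19.7, 19.9 and 21.2 RPM to 46.0, 49.8 and 46.3 RPM (log2 1.18 ± 0.0565 SE, adjusted p = 2.16e-10). TFS1, an inhibitor of carboxypeptidase Y, rose from 53.5, 53.4 and 48.5 RPM to 106.8, 110.4 and 113.1 RPM, 2.13-fold. PAI3, an inhibitor of proteinase A, rose from 8.27, 7.68 and 7.06 RPM to 17.3, 14.4 and 14.9 RPM, 2.02-fold. In each of these genes every library without phosphate lay above every library with it. PNC1, the nicotinamidase, rose 1.63-fold.

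Of the wall, membrane and reticulum genes all 5 rose. HOR7, a small protein induced by high osmolarity, was the most abundant member per length, at a mean of 3536 RPM per kilobase of coding sequence with phosphate. It stood at 704.8, 566.9 and 637.6 RPM and then at 1401, 1372 and 1131 RPM, 2.04-fold higher (log2 1.03 ± 0.107 SE, adjusted p = 2.14e-06). Its related gene DDR2, induced by many stresses, rose from 12.8, 14.0 and 13.4 RPM to 37.7, 34.8 and 34.3 RPM, 2.66-fold (log2 1.35 ± 0.117 SE, adjusted p = 2.86e-07). YGP1, a secreted glycoprotein, the reticulon RTN2 and the wall protein SPI1 rose 1.87-fold, 1.52-fold and 1.26-fold. SPI1 had an adjusted p of 0.19 with TMM.

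RTC3 led the mitochondrial and remaining genes, all 4 of which rose. It went from 22.6, 23.0 and 22.8 RPM to 59.3, 66.0 and 53.8 RPM, 2.62-fold (log2 1.34 ± 0.0729 SE, adjusted p = 1.16e-09). MSC1 and OM45, the latter an outer membrane protein of mitochondria, rose 2.22-fold and 1.91-fold. CYC7, the minor form of cytochrome c, rose from 14.1, 12.6 and 12.9 RPM to 17.7, 19.7 and 18.9 RPM, 1.42-fold (log2 0.48 ± 0.0776 SE, adjusted p = 0.00011).

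All 3 transcription factor genes rose. XBP1, a repressor of growth genes, was at 11.1, 15.9 and 11.4 RPM with phosphate and at 22.0, 25.6 and 24.9 RPM without, 1.89-fold higher. USV1 moved from 11.9, 14.1 and 10.8 RPM to 18.2, 22.6 and 20.9 RPM, 1.67-fold. MSN4 moved from 33.8, 39.5 and 36.4 RPM to 45.0, 45.3 and 45.7 RPM, 1.24-fold (log2 0.31 ± 0.0616 SE, adjusted p = 0.000603), with an adjusted p of 0.14 under TMM. All 35 calls held when any 1 of the 6 libraries was left out. Library 10 was the highest of its group for 26 of 36 members.

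**Figure D2:**
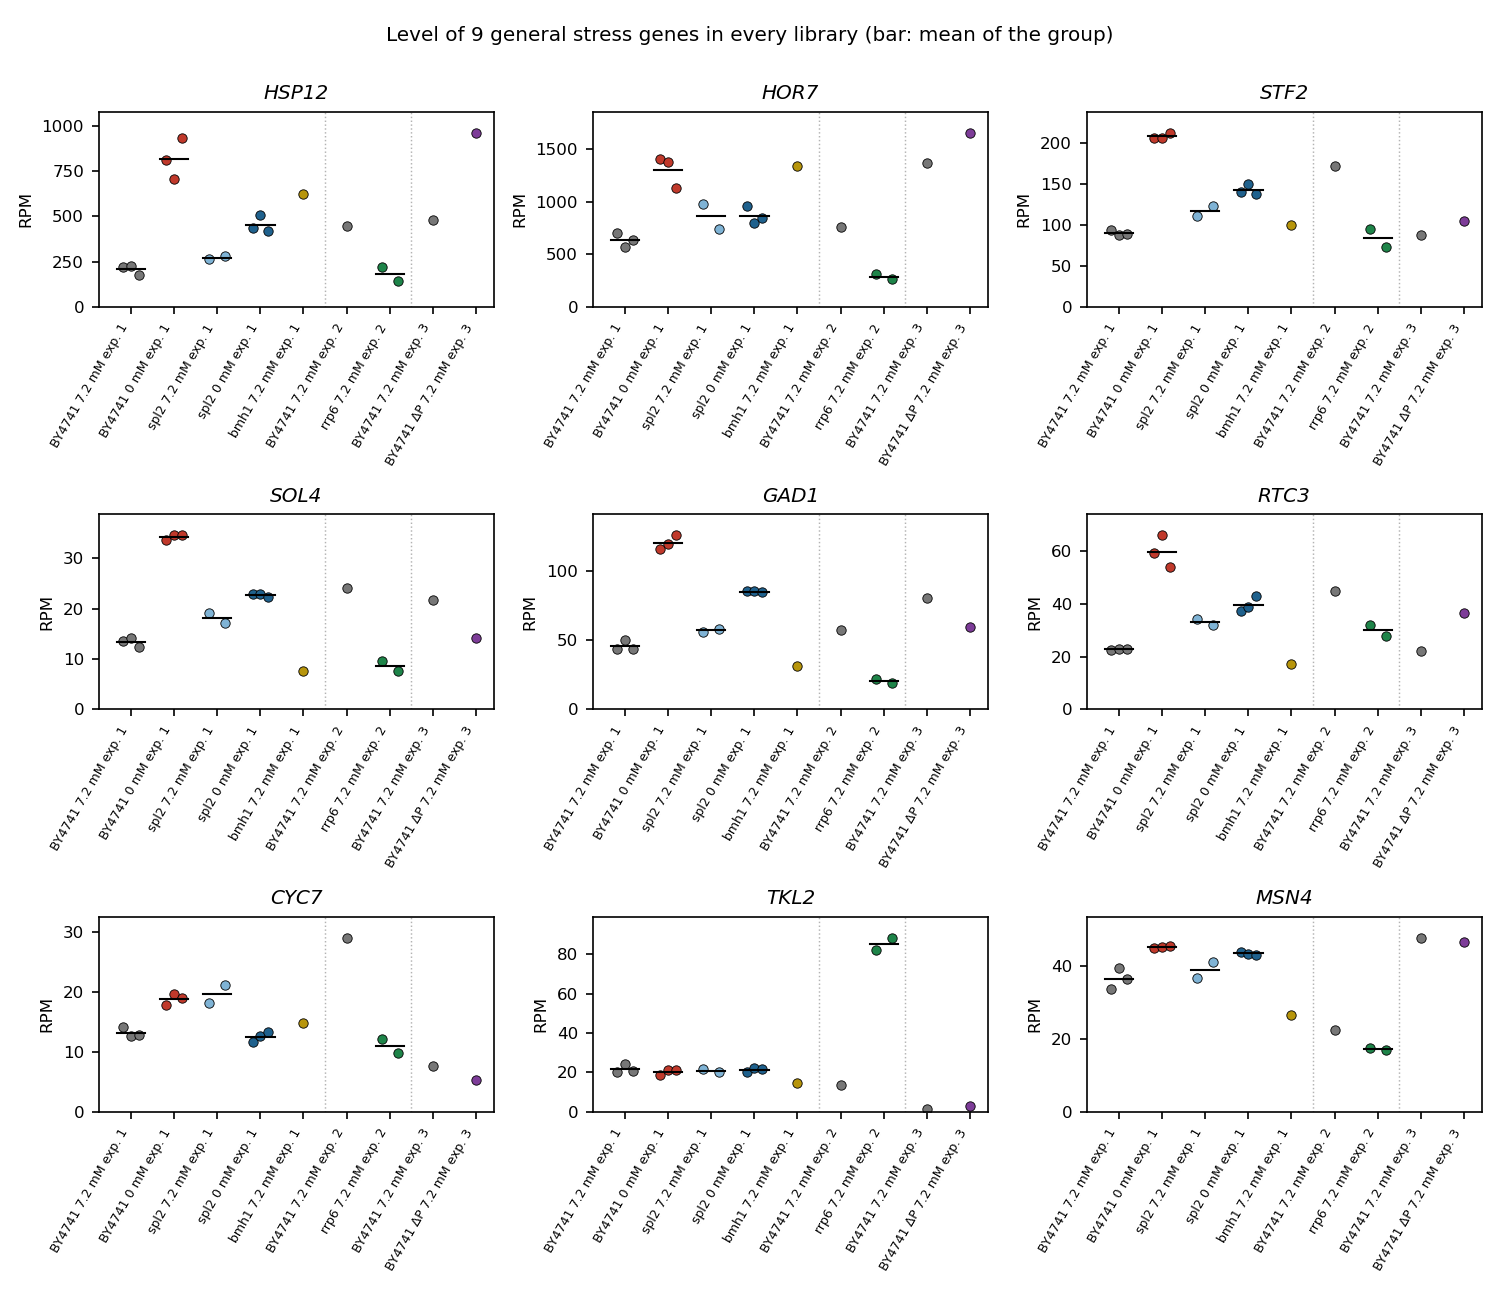
RPM of 9 genes in every library, by strain, phosphate level and experiment; points are libraries, bars the mean where a group has more than 1, and dotted lines part the experiments. HSP12 runs from 143.7 to 961.8 RPM, CYC7 in the spl2 libraries is lower at 0 mM than at 7.2 mM, and TKL2 is high in the rrp6 libraries alone.

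The members are grouped here by the number of elements in the promoter, as a description across genes that are not independent. The median BY4741 change was log2 0.46 for the 5 members with no AGGGG, 0.75 for the 9 with 1, and 0.92 for the 22 with 2 or more. Over all genes with a window the medians were 0.20, 0.22 and 0.29 in the same order. HSP12, with 5 matches, had the largest change. The relation was loose. SPI1 with 3 matches rose by 0.33, while GAD1 and SOL4 with 1 match each rose by 1.38 and 1.30.

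**Figure D3:**
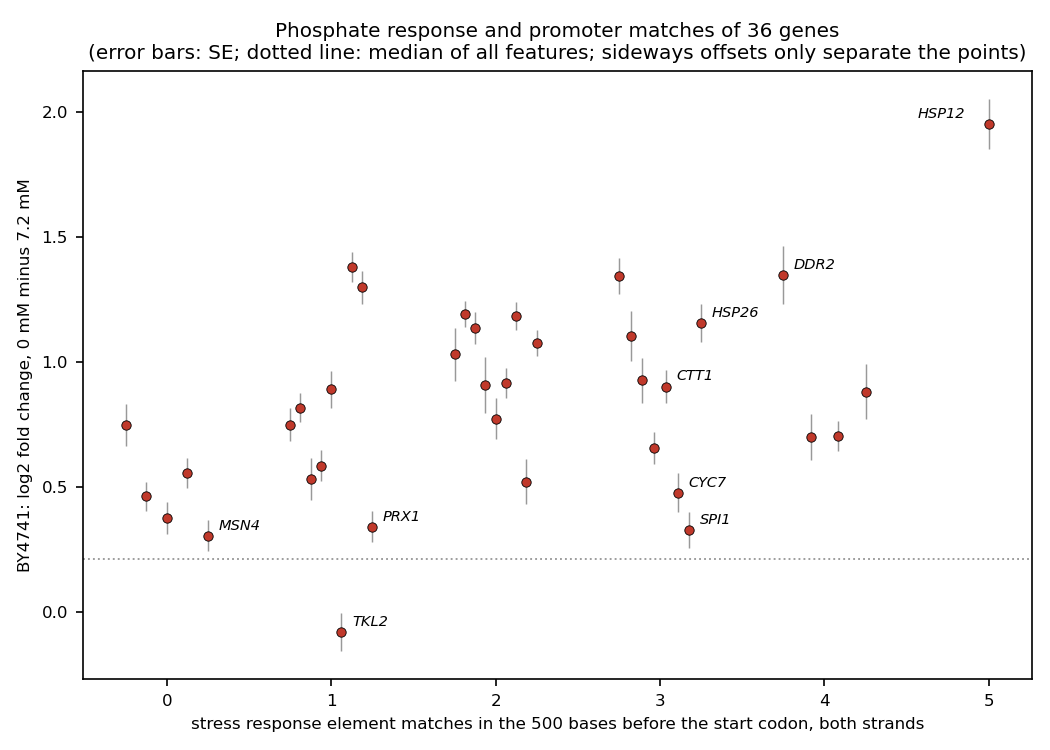
Change of 36 genes in BY4741 without phosphate (log2 fold change ± SE) against the number of stress response element matches in the 500 bases before the start codon, with the median of all features, 0.21, as a dotted line. The median change is 0.46 with no match, 0.75 with 1 and 0.92 with 2 or more, with a wide range at each number.

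Related genes that are no members moved in both directions. Of 14 such partners 6 rose and 4 fell, with a median of log2 -0.07. With TMM 5 rose and 7 fell, with a median of -0.25, against 0.01 for all features. The values that follow are without that scaling. DCS1, the partner of DCS2, went from 50.8, 57.3 and 51.0 RPM to 81.6, 80.2 and 80.6 RPM. SED1, the partner of SPI1, went from 937.5, 1177 and 981.9 RPM to 1533, 1473 and 1602 RPM. YPR1, the partner of GCY1, went from 73.3, 81.9 and 73.5 RPM to 107.0, 105.3 and 107.0 RPM. The main transketolase gene TKL1 and the main lactonase gene SOL3 did not pass, at -0.10 and -0.09, while the major phosphogluconate dehydrogenase gene GND1 fell by 0.17. GPD2 fell by 0.26 from 290.1 to 242.4 RPM as GPD1 rose by 0.66, and CYC1, the main cytochrome c gene, fell by 0.56 from 86.6 to 58.5 RPM as CYC7 rose by 0.48. MSN2, the partner of MSN4, rose by 0.41 from 77.6 to 103.6 RPM. A list of 33 regulator genes, called the upstream list, was also counted. It holds MSN2 itself and separate stress transcription factors such as HSF1 and YAP1, besides genes that act upstream of Msn2 and Msn4. Of these 33 genes 30 rose and 0 fell, but their median of 0.23 was near the 0.21 of all features. With TMM 8 rose and 1 fell. TPK2, a protein kinase A subunit gene, rose by 0.56, GPA2 by 0.51, and the phosphodiesterase gene PDE1 by 0.48. Of 22 other stress genes, which serve trehalose and glycogen metabolism, hexose phosphorylation, protein folding and oxidant defence, 19 rose and 1, SOD1, fell, with a median of 0.65. PGM2, phosphoglucomutase, rose by 1.25, the peroxiredoxin gene TSA2 by 1.25, glucokinase GLK1 by 1.02 and the hexokinase gene HXK1 by 1.004.

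The next comparisons asked how the response differed in the strain lacking SPL2. In the spl2 deletion the members took 0.311% and 0.285% of reads with phosphate and 0.367%, 0.358% and 0.347% without. These shares lay above those of BY4741 with phosphate and below them without. Of 36 members 23 rose and 2 fell between 7.2 mM and 0 mM, where 57.3% of 6033 features passed higher and 8.75% lower. Their median of log2 0.27 was near the 0.23 of all features, and with TMM 9 members rose and 5 fell (1210 features higher and 1429 lower). All 23 had also risen in BY4741, 10 others had risen in BY4741 and did not pass here, and CYC7 and TMA10 rose in BY4741 and fell here. The change was smaller in spl2 than in BY4741 for 35 of 36 members. Within spl2 the calls of DDR2, GCY1, HSP42, RTC3 and XBP1 were each lost without at least 1 library at 0 mM. The rise of GCY1, log2 0.20, became -0.0355 with TMM. That of GRE1, log2 0.29, was 0.25 without library 18.

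The difference between the responses was tested as an interaction. It was negative and passed for 28 members and positive for 0, while 7.73% of 6071 features passed lower and 6.8% higher. Its median was -0.59 for the members and 0.01 for all features. The counts of 0 and 28 were the same with TMM and in edgeR, and DESeq2 gave 0 and 29. At an interaction of -1 or below stood 4 members, HSP12, RTC3, CYC7 and HOR7, against 0.132% of all features.

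HSP12 rose from 265.7 and 280.0 RPM to 435.7, 505.9 and 421.6 RPM in spl2, 1.67-fold, against 3.88-fold in BY4741. The groups stayed apart, and the interaction was -1.22 ± 0.152 (SE, adjusted p = 0.000223). HSP26 and HSP42 rose by log2 0.59 and 0.28 where BY4741 had 1.16 and 1.10, with interactions of -0.56 and -0.82. The rise of HSP42 in spl2 did not pass without library 12 (adjusted p = 0.129) or without library 18 (adjusted p = 0.347). HSP30 rose by 0.26 and its interaction of -0.12 did not pass. CTT1 went from 28.5 and 26.9 RPM to 38.3, 39.4 and 37.3 RPM, with an interaction of -0.45. PRX1 stood at 98.9 and 87.7 RPM and then at 91.2, 79.9 and 79.4 RPM, overlapping groups, with an interaction of -0.50 ± 0.0929 (SE, adjusted p = 0.00312).

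All 4 hydrophilin genes passed the test of the difference. STF2 rose from 111.7 and 123.4 RPM to 139.9, 150.1 and 137.9 RPM, with an interaction of -0.91 ± 0.0792 (SE, adjusted p = 7.32e-06), the smallest adjusted p of the members. TMA10 fell from 31.0 and 26.0 RPM to 19.3, 22.2 and 21.0 RPM, 1.37-fold (log2 -0.43 ± 0.0947 SE, adjusted p = 0.001), with an interaction of -0.97. CYC7, the minor cytochrome c gene, fell from 18.1 and 21.1 RPM to 11.7, 12.6 and 13.3 RPM, 1.57-fold (log2 -0.61 ± 0.0868 SE, adjusted p = 4.2e-05), with an interaction of -1.08. Both falls held without any 1 library. The interactions of SIP18 and GRE1, -0.67 and -0.46, did not pass without spl2 library 7 (adjusted p = 0.0796 and 0.0926), and that of GRE1 did not pass without BY4741 library 16 or 13 either (adjusted p = 0.073 and 0.0618).

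In the metabolic groups the largest differences were those of SOL4, GAD1, TFS1, DCS2 and PAI3. SOL4 went from 19.2 and 17.2 RPM to 22.8, 22.9 and 22.3 RPM in spl2, with an interaction of -0.99. GAD1 went from 55.8 and 58.4 RPM to 85.4, 85.6 and 84.6 RPM, still a clear rise of log2 0.57, with an interaction of -0.81. TFS1 went from 66.3 and 64.6 RPM to 77.0, 79.4 and 75.4 RPM, with an interaction of -0.84. All 3 genes passed as higher in both strains, but with TMM the rises of SOL4 and TFS1 in spl2 did not pass (adjusted p = 0.385 and 0.953). TKL2 stood at 21.6 and 20.2 RPM with phosphate and at 20.1, 22.5 and 21.8 RPM without in spl2, overlapping groups as in BY4741, with an interaction of 0.12 that did not pass. DCS2 went from 25.3 and 26.5 RPM to 33.5, 33.5 and 32.8 RPM, with an interaction of -0.84. PAI3 stood at 9.17 and 10.2 RPM and then at 9.81, 11.6 and 10.5 RPM, overlapping groups whose change of log2 0.12 became -0.09 with TMM, and its interaction was -0.80. DAK1 went from 138.8 and 150.1 RPM to 190.4, 206.1 and 195.4 RPM, a rise of log2 0.45 against 0.56 in BY4741. The responses of DAK1 and ALD2 in the strains did not differ past the threshold, with interactions of -0.11 ± 0.089 and -0.03 ± 0.0864 (SE).

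HOR7 stood at 975.1 and 742.4 RPM with phosphate and at 960.4, 798.6 and 840.6 RPM without in spl2. Its groups overlapped, its change of log2 0.02 ± 0.12 (SE) became -0.21 with TMM, and the interaction was -1.01 ± 0.161 (SE, adjusted p = 0.00153). DDR2 went from 22.3 and 15.2 RPM to 27.5, 20.2 and 24.1 RPM. Its groups overlapped too, and its rise of log2 0.35 did not pass without library 18 (log2 0.09, adjusted p = 0.542), 12 (adjusted p = 0.0997) or 20 (adjusted p = 0.0538). The interaction of DDR2 was -0.997 ± 0.175 (SE, adjusted p = 0.00223). YGP1 rose by log2 0.65 in spl2 and 0.89 in BY4741, with an interaction of -0.24 ± 0.111 (SE, adjusted p = 0.153). RTC3 went from 34.0 and 31.9 RPM to 37.1, 38.6 and 42.9 RPM, with an interaction of -1.09 ± 0.109 (SE, adjusted p = 3.14e-05). Its rise within spl2 did not pass without library 18 or 20 (adjusted p = 0.0876 and 0.0581).

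Of the transcription factor genes, XBP1 stood at 18.3 and 15.5 RPM and then at 21.0, 21.5 and 20.3 RPM in spl2. Its rise of log2 0.30 did not pass without library 18, 19, 12 or 20 (adjusted p = 0.294, 0.0932, 0.065 and 0.0542). Its interaction of -0.58 did not pass without spl2 library 7 (adjusted p = 0.119) or without BY4741 library 16, 13 or 11 (adjusted p = 0.0722, 0.0665 and 0.0544). USV1 was at 14.7 and 15.9 RPM and then at 15.1, 15.7 and 15.6 RPM, with a change of log2 0.02, -0.21 with TMM, and an interaction of -0.68 ± 0.139 (SE, adjusted p = 0.00504). MSN4 was at 36.9 and 41.1 RPM and then at 44.0, 43.6 and 43.2 RPM. Its change of log2 0.16, -0.07 with TMM, did not pass, nor did its interaction of -0.15.

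**Figure D4:**
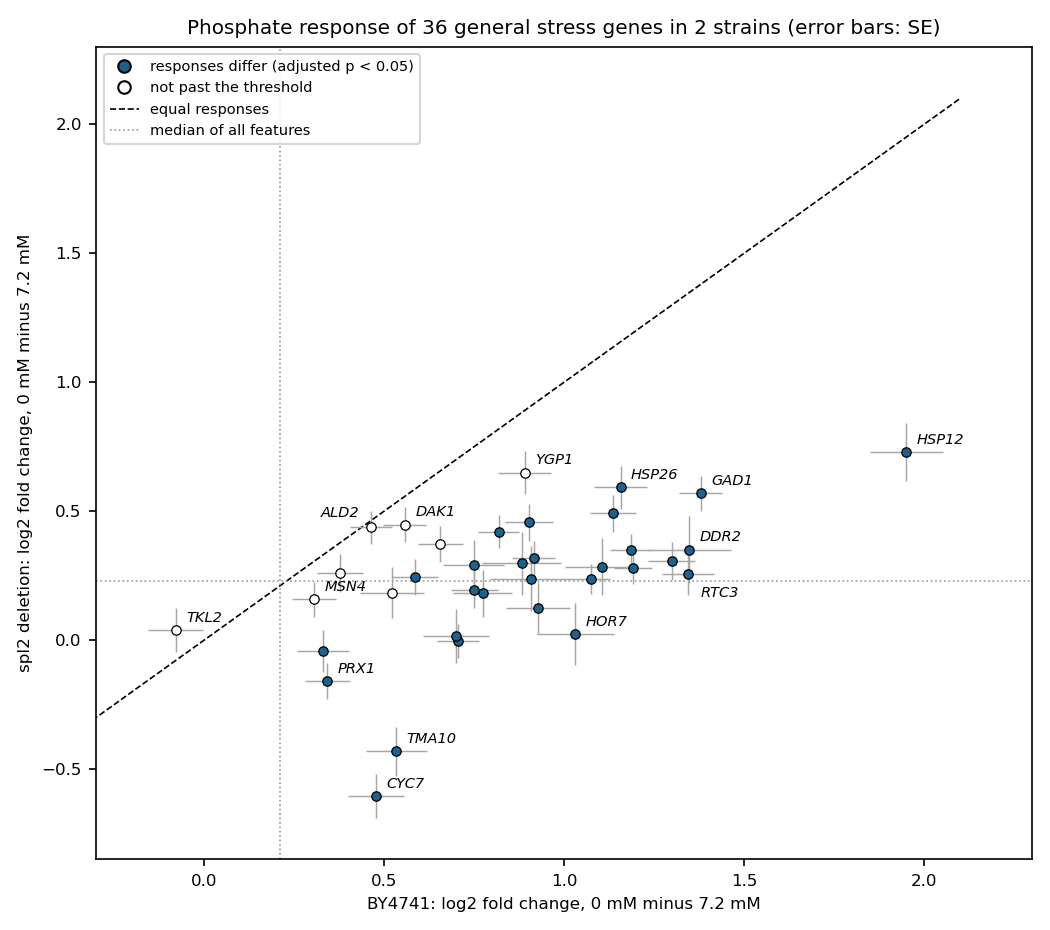
Change without phosphate in the spl2 deletion (vertical axis) against that in BY4741 (horizontal axis) for 36 genes, log2 fold change with SE; filled points passed the test of the difference. Of the 36 points 35 lie below the dashed line of equal responses, 28 are filled, and CYC7 and TMA10, at -0.61 and -0.43 for spl2, lie lowest.

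Split by phosphate level, the strains differed in both directions. These contrasts use the same libraries as the interaction and are given side by side with it. At 7.2 mM 7 members were higher in spl2 and 0 lower, where 0.217% of 6002 features passed higher (13 features) and 0.283% lower. STF2 was higher by log2 0.37 (adjusted p = 0.00621), RTC3 by 0.51 (0.00602), CYC7 by 0.53 (0.0068), SOL4 by 0.42 (0.0117), TFS1 by 0.33 (0.0124), PNC1 by 0.37 (0.0135) and DCS2 by 0.34 (0.016). None of the 7 calls held in every fit that left out 1 library. Without spl2 library 7 only STF2 and CYC7 passed, without BY4741 library 13 the count was 4, and without BY4741 library 11 it was 5. CYC7 and STF2 missed the threshold without spl2 library 18 (adjusted p = 0.0587 and 0.0526). The median difference was 0.24 for the members and -0.02 for all features, and HSP12 was higher by 0.38 without passing (adjusted p = 0.155).

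At 0 mM 26 members were lower in spl2 and 0 higher, where 7.44% of 6031 features passed lower and 5.64% higher. The median difference was -0.35 for the members and -0.02 for all features. HSP12 was 1.80-fold lower (log2 -0.84 ± 0.101 SE, adjusted p = 0.000169), and HSP26 was lower by log2 0.60. SOL4, RTC3, HOR7, DDR2, CYC7, STF2 and TMA10 were between 1.46-fold and 1.51-fold lower. All 4 hydrophilin genes, all 4 inhibitor and cofactor genes and all 4 mitochondrial and remaining genes passed. The mean of YGP1 was 157.2 RPM in spl2 and 158.9 RPM in BY4741, and its difference of log2 -0.01 ± 0.074 (SE) did not pass. Of the 26 calls 18 held without any 1 library. Those of HSP42, CTT1, PRX1, GRE1, SIP18, ALD3, RTN2 and USV1 did not, and the count was lowest, at 19, without BY4741 library 16 or spl2 library 19. The other 22 stress genes moved the same way in the interaction, with 17 lower and 0 higher, led by HXK1 at -0.86, PGM2 at -0.83, GSY1 at -0.72 and GLC3 at -0.71. Of the 33 genes of the upstream list 1 was lower and 2 were higher, SCH9 at 0.30 and RAS1 at 0.22. Glucose-repressed genes summed to 408.7 to 438.8 RPM in the 5 spl2 libraries and 399.2 to 477.1 RPM in the 6 BY4741 libraries. Of these 12 genes 7 rose and 0 fell without phosphate in BY4741, and 8 rose and 1 fell in spl2. Their medians of log2 0.27 and 0.31 were near the 0.21 and 0.23 of all features. With TMM 4 rose and 2 fell in BY4741, and 1 rose and 1 fell in spl2.

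The bmh1 deletion was represented by 1 library, which was taken to vary like the other groups. Of 36 members 22 were lower and 4 higher than in BY4741 at 7.2 mM, where 48.8% of 5987 features passed lower and 15.2% higher. The median was log2 -0.38 for the members and -0.22 for all features. With TMM, which removes that shift, 10 were lower and 8 higher (1655 and 1812 of all features), so the balance of the list depended on the scaling, while HSP12 and HOR7 passed as higher and HSP26 and SOL4 as lower under both. The 36 genes summed to 3261 RPM, above the 2324 to 2468 RPM of BY4741, but without HSP12 and HOR7 to 1303 RPM, below its 1507 to 1672 RPM.

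HSP12 and HOR7 rose the most. HSP12 was at 626.2 RPM, 2.98-fold above the BY4741 mean (log2 1.58 ± 0.143 SE, adjusted p = 1.2e-06). HOR7 was at 1332 RPM, 2.09-fold higher (log2 1.07 ± 0.151 SE, adjusted p = 3.08e-05). Both lay above all 3 BY4741 libraries by a wide margin. SPI1 at 41.4 RPM and PAI3 at 10.6 RPM were 1.41-fold and 1.39-fold higher. HSP12, HOR7, SPI1 and PAI3 are all short, with 330, 180, 447 and 207 coding bases. TMA10, DDR2 and RTC3, with 261, 186 and 336 coding bases, were lower. A part of gene length in this single library was not tested. With TMM STF2 and CYC7 were among the 8 that passed as higher. STF2 stood at 99.6 RPM, CYC7 at 14.7 RPM and SIP18 at 3.40 RPM, with changes of log2 0.13, 0.15 and 0.19 that did not pass without that scaling. The highest BY4741 values of these genes were 94.1, 14.1 and 3.38 RPM, so SIP18 was barely outside the BY4741 range.

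The chaperone genes moved opposite to HSP12. HSP26 was at 16.2 RPM, 2.06-fold lower (log2 -0.9995 ± 0.105 SE, adjusted p = 4.26e-06), and HSP42 was at 28.0 RPM, 1.76-fold lower. CTT1 at 17.5 RPM and PRX1 at 55.1 RPM were lower by log2 0.44 and 0.48. Below all 3 BY4741 libraries stood also TMA10 at 12.6 RPM (log2 -0.69), SOL4 at 7.53 RPM (-0.75), TKL2 at 14.7 RPM (-0.53) and DAK1 at 95.6 RPM (-0.57). GAD1 was at 31.7 RPM, DCS2 at 15.04 RPM, RTC3 at 17.3 RPM and DDR2 at 9.41 RPM, with changes of -0.51, -0.41, -0.38 and -0.47. With TMM GAD1 still passed, while DCS2, RTC3, DDR2 and PRX1 did not (adjusted p = 0.0523, 0.217, 0.259 and 0.0539). The calls of DDR2 and GND2 were lost without BY4741 library 10 (adjusted p = 0.0601) and without library 11 (adjusted p = 0.0712). USV1 was at 8.42 RPM (-0.49) and MSN4 at 26.5 RPM (-0.45), both lower, though USV1 did not pass with TMM (adjusted p = 0.068), whereas XBP1 at 12.0 RPM and TFS1 at 49.8 RPM lay within the BY4741 range. Of the 22 other stress genes 19 were lower and 0 higher, with GSY1 at -1.43, GPH1 at -1.41, HXK1 at -1.06 and TSL1 at -1.01; with TMM 15 were lower and 3 higher. Of the upstream list 31 of 33 genes, BMH1 included, were lower and 1, PDE2 at 0.30, was higher. With TMM 22 were lower and 1 higher.

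**Figure D5:**
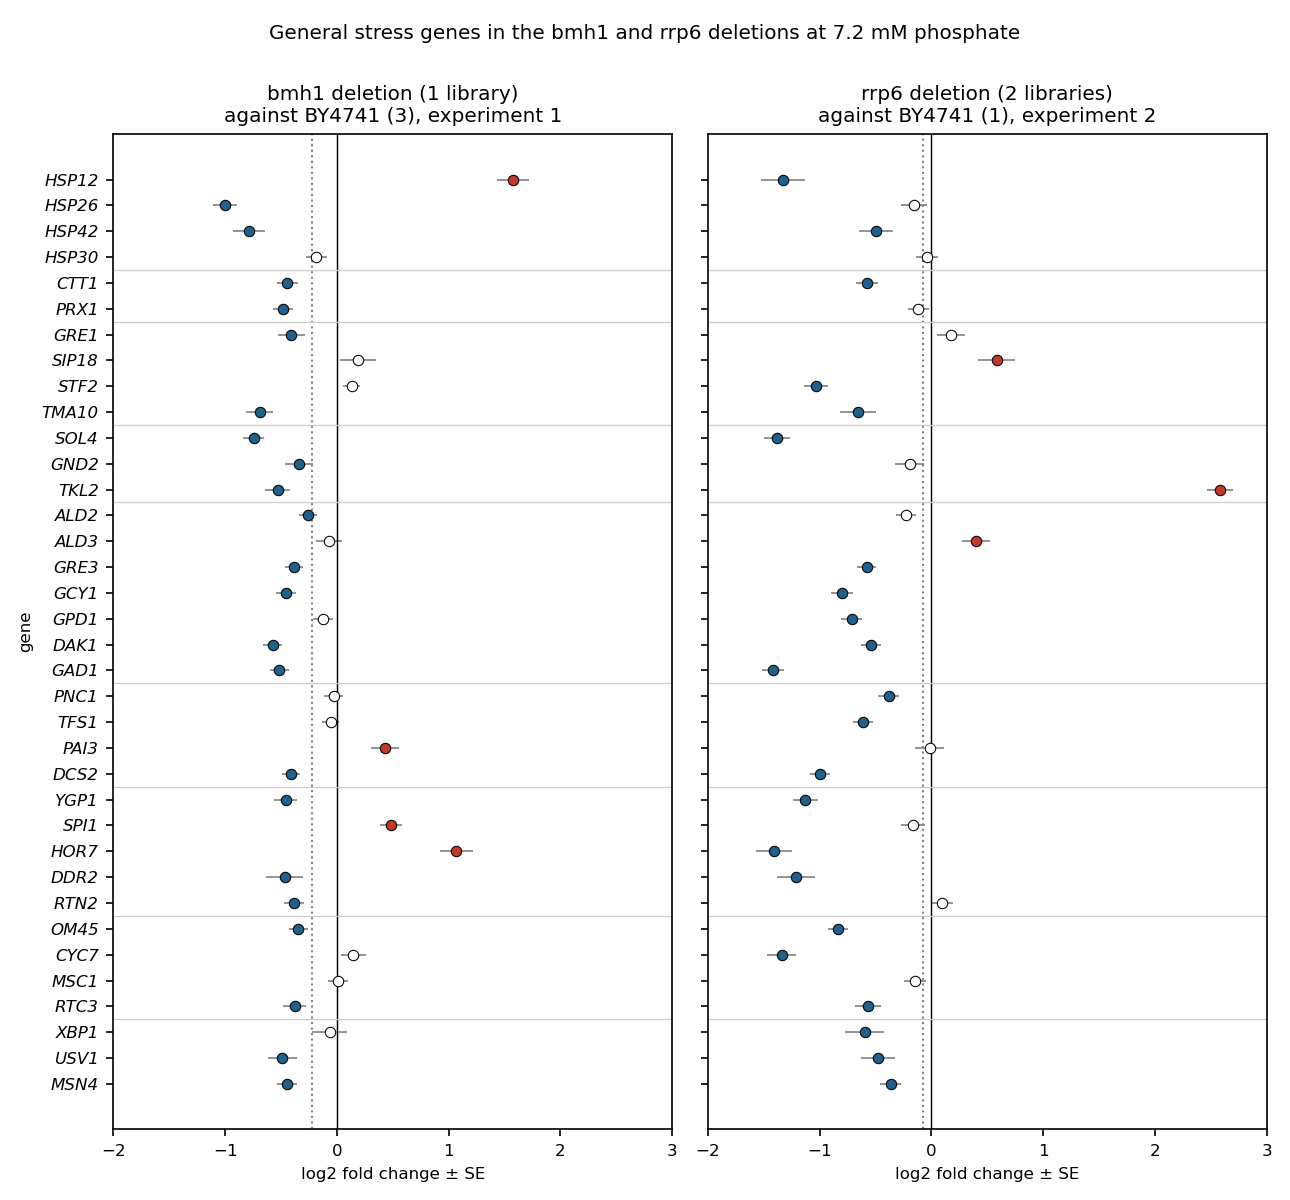
Change of 36 genes at 7.2 mM in the bmh1 deletion (left) and in the rrp6 deletion (right), log2 fold change ± SE; filled points passed, red higher and blue lower, and the dotted line is the median of all features. HSP12 and HOR7 are higher in bmh1 and lower in rrp6, and TKL2 is lower in bmh1 and higher in rrp6; with TMM 8 members are higher and 10 lower in bmh1.

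The rrp6 deletion was compared within experiment 2. Of 36 members 23 were lower and 3 higher than in BY4741, where 24.6% of 6039 features passed lower and 15.9% higher. The median was log2 -0.55 for the members and -0.08 for all features. The members summed to 3162 RPM in BY4741 and to 1993 and 1753 RPM in rrp6. A single BY4741 library, B, served as the control, and it was taken to vary like the other groups. On the log2(RPM + 1) scale 8 members were lower by 1 or more, against 0.695% of all features.

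HSP12 fell from 446.9 RPM to 219.1 and 143.7 RPM, 2.46-fold (log2 -1.33 ± 0.194 SE, adjusted p = 4.53e-05). HOR7 fell from 762.1 to 311.2 and 263.4 RPM, 2.65-fold (log2 -1.41 ± 0.162 SE, adjusted p = 2.93e-06), and DDR2 from 26.0 to 10.3 and 11.0 RPM, 2.44-fold. In all 3 genes both rrp6 libraries were under the control. GAD1 fell from 57.2 to 22.4 and 19.3 RPM, 2.74-fold (log2 -1.42 ± 0.0991 SE, adjusted p = 5.72e-09), and SOL4 from 24.2 to 9.69 and 7.68 RPM, 2.78-fold. CYC7 fell from 29.0 to 12.1 and 9.74 RPM, 2.65-fold, STF2 from 172.7 to 95.5 and 73.8 RPM, 2.04-fold, and DCS2 from 28.9 to 14.6 and 13.3 RPM, 2.07-fold. Of the 23 members that were lower, 15 stood higher in control library B than in any BY4741 library of experiment 1 at 7.2 mM. HSP12, HOR7, DDR2, GAD1 and SOL4 were among these 15, while 3 members lay within that range and 5 below it. Of 5993 features, 30.2% stood above that range in library B and 59.1% below it. The share among all features lower in rrp6 was not counted. The part of that raised control in the result was not tested. YGP1 fell 2.20-fold, and OM45, GCY1 and GPD1 1.80-fold, 1.77-fold and 1.65-fold.

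CTT1 fell from 25.4 to 16.1 and 17.4 RPM, whereas PRX1, at 107.1 RPM and then 102.7 and 94.9 RPM, did not pass. TMA10 went from 37.6 to 27.8 and 19.8 RPM, DAK1 from 109.8 to 73.3 and 76.9 RPM, TFS1 from 93.8 to 65.4 and 56.9 RPM and RTC3 from 44.6 to 32.1 and 27.7 RPM, all of them lower. PAI3 was at 8.42 RPM in BY4741 and at 8.42 and 8.25 RPM in rrp6, and did not pass. The transcription factor genes were lower. XBP1 fell from 10.5 to 7.56 and 5.79 RPM, with no call without library D (adjusted p = 0.0923). USV1 fell from 10.3 to 6.29 and 8.02 RPM, with no call without library C (adjusted p = 0.143). MSN4 fell from 22.5 to 17.6 and 16.9 RPM (log2 -0.36 ± 0.0927 SE, adjusted p = 0.0053), and its partner MSN2 by 0.44. The call of HSP42 (log2 -0.49) was lost without library D (adjusted p = 0.0861).

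TKL2 went the other way by the widest margin of the list. It stood at 13.4 RPM in BY4741 and at 82.1 and 88.5 RPM in rrp6, 6.37-fold higher (log2 2.58 ± 0.112 SE, adjusted p = 1.09e-11). Its main form TKL1 did not pass, at log2 -0.20. SIP18 rose from 2.67 to 4.85 and 4.18 RPM (log2 0.58) and ALD3 from 22.9 to 32.2 and 29.0 RPM (log2 0.40). Without library C both calls were lost (adjusted p = 0.0723 and 0.0892), which left TKL2 as the only member higher. The reads of ALD3 cannot be told from those of ALD2 over their shared stretches, and ALD2 went from 25.4 to 22.4 and 20.7 RPM without passing. Of the 22 other stress genes 12 were lower and 0 higher, with HXK1 at -1.64, TSL1 at -1.31, PGM2 at -1.26 and TPS2 at -1.17. Of the 33 genes of the upstream list 18 were lower and 2 higher. Glucose-repressed genes summed to 360.0 RPM in BY4741 and to 402.4 and 401.9 RPM in rrp6, with 6 of 12 higher and 2 lower.

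The ΔP strain and its BY4741 control had 1 library each, so no test was made and the intervals of ratios cover counting error alone. Counted on the log2(RPM + 1) scale, 4 members were over 1.5-fold higher in ΔP and 1 was over 1.5-fold lower, against 3.37% and 0.596% of 5703 features. By the ratio of RPM itself GND2, at 1.52, and SOL4, at 0.652, passed that fold too. HSP12 stood at 482.3 RPM in BY4741 and 961.8 RPM in ΔP, a ratio of 1.99 (95% interval 1.96 to 2.03). TMA10 went from 14.4 to 25.8 RPM, RTC3 from 22.0 to 36.5 RPM and TKL2 from 1.59 to 2.93 RPM, ratios of 1.79, 1.66 and 1.84. HSP42 went from 42.3 to 27.4 RPM, 1.55-fold lower. The remaining members changed less on that scale, with HOR7 at 1366 and 1652 RPM, STF2 at 87.8 and 105.2 RPM, SOL4 at 21.8 and 14.2 RPM, GAD1 at 80.8 and 59.6 RPM, DAK1 at 193.9 and 193.3 RPM and DDR2 at 28.7 and 26.6 RPM. CTT1 stood at 31.5 and 35.4 RPM, PRX1 at 78.4 and 66.9 RPM, DCS2 at 28.9 and 21.6 RPM, TFS1 at 51.4 and 43.6 RPM, PAI3 at 13.4 and 19.96 RPM and CYC7 at 7.70 and 5.25 RPM. Of the transcription factor genes, XBP1 stood at 12.4 and 13.3 RPM, USV1 at 11.2 and 8.37 RPM and MSN4 at 47.98 and 46.7 RPM. The median was log2 -0.03, with 16 members above 0 and 20 below.

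BY4741 at 7.2 mM differed between experiments, and no test was made because experiments 2 and 3 held 1 such library each. In experiment 2 it was above the range of experiment 1 for 21 members and below it for 10, shares of 58.3% and 27.8%, where all features had 30.2% and 59.1%. In experiment 3 it was above for 19 and below for 11, shares of 52.8% and 30.6%, where all features had 33.7% and 49.6%. HSP12, at 446.9 and 482.3 RPM, was 2.13-fold and 2.29-fold the mean of experiment 1, and DDR2 was 1.94-fold and 2.14-fold. TKL2 had 13.4 RPM in experiment 2 and 1.59 RPM in experiment 3, the latter 13.6-fold under experiment 1. HSP30 was at 4.99 RPM in experiment 3, 3.30-fold under experiment 1. Strains and phosphate levels were therefore compared within experiments alone.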

How the data were processed

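RNA was sequenced from 17 yeast cultures with a stranded kit on a HiSeq instrument, per the labels' protocols. The authors deposited one table of RPM for 7125 features, reads scaled to a common library total, per the file headers. Aligner, counter, genome build and use of strand were not given in the sources used here. The values were whole multiples of 1 read (100% whole at a tolerance of 0.001 reads), so reads were recovered, 17456154 to 44667485 per library. The labels were followed where the design text swaps the numbers of spl2 libraries between phosphate levels.

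The main test was limma 3.58.1 in R 4.3.3 (trend) on log2(RPM + 1), over features that reached 1 RPM in a number of libraries no smaller than the smaller group's size and no smaller than 2. Fold changes on that scale understate the change of low genes, while ratios printed as folds are of mean RPM. Adjusted p-values are Benjamini-Hochberg over all features tested, with 0.05 as threshold. Experiment 1 was fitted as 1 model of 12 libraries, and rrp6 within a model of 15 libraries of experiments 1 and 2. Alternatives were TMM scaling, a pseudocount of 0.1, no filter, only the groups compared, edgeR 4.0.16 and DESeq2 1.42.0 on the recovered reads, and leaving out each library. The test was also run on simulated data with a single fixed spread for every feature and no shift of the median gene. These data differ in both respects, so no support for the calls is drawn from it. Intervals cover counting error only.

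Members and lists were chosen with earlier results of these data known. All 36 members could be named; within each role the member with the largest change, and HSP12, MSN4, USV1 and XBP1, were given for every library. The design text calls the cultures independent, yet p-values measure only the spread between these libraries. The values of 1 gene of the upstream list are not reported here.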

Additional observations from a re-analysis of the deposited data

Results flagged for a closer look

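The response to 60 min without phosphate differed between the spl2 deletion and BY4741 for 28 members by limma's interaction test at an adjusted p of 0.05, all 28 with a smaller or opposite change in spl2. The log2 interaction was -1.22 for HSP12, -1.09 for RTC3, -1.08 for CYC7 and -1.01 for HOR7. It was -0.997 for DDR2, -0.99 for SOL4, -0.97 for TMA10 and -0.91 for STF2. It was -0.84 for TFS1, -0.84 for DCS2, -0.82 for HSP42, -0.81 for GAD1 and -0.80 for PAI3. It was -0.71 for PNC1, -0.68 for USV1, -0.67 for SIP18 and -0.65 for MSC1. It was -0.60 for OM45, -0.59 for ALD3, -0.58 for XBP1, -0.56 for HSP26, -0.55 for GCY1 and -0.50 for PRX1. It was -0.46 for GRE1, -0.45 for CTT1, -0.40 for GRE3, -0.37 for SPI1 and -0.34 for RTN2. The calls of GRE1, RTN2, SIP18, SPI1 and XBP1 were lost without at least 1 library, and 23 held without each. The ALD3 value rests on reads it may share with ALD2.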

How the results depend on the processing

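No paired analysis was possible because which libraries share a parent culture is not given. The median gene shifted by log2 0.21 in BY4741, 0.23 in spl2 and -0.22 in bmh1. In BY4741 1 member was lower with TMM, edgeR and DESeq2. In spl2 9 members were higher and 5 lower under each of these. In bmh1 8 were higher under each, and 10, 9 and 10 were lower. At 7.2 mM 13 members were higher in spl2 with only the groups compared and with DESeq2, and 2 to 9 when 1 library was left out. In rrp6 1 to 3 were higher when 1 library was left out. With TMM 8 members changed sign in spl2, GND2, TKL2 and ALD3 among them, and 6 in bmh1 (HSP30, ALD3, GPD1, PNC1, TFS1 and XBP1). With TMM, edgeR and DESeq2 the response in spl2 became negative for GCY1 (-0.0355, -0.0361, -0.031), PAI3 (-0.0897, -0.0961, -0.0911), HOR7 (-0.214, -0.226, -0.22), USV1 (-0.205, -0.22, -0.214) and MSN4 (-0.0722, -0.0769, -0.0721). Leaving out 1 library also turned it for HOR7 (-0.0544 without library 12, -0.175 without 18) and USV1 (-0.0346 without 7), with ranges up to 0.218 and 0.0663. XBP1 in bmh1 became 0.156, 0.145 and 0.148, and -0.153 to 0.0918 when 1 library was left out. The interaction of ALD2 became 0.00655, 0.00113 and 0.0476 without libraries 16, 19 and 18, the lowest being -0.0984. YGP1 at 0 mM became 0.0731 without library 17 and 0.0183 without 12, the lowest being -0.0665. The cause was not tested. Of the alternatives counted for single genes 2154 kept direction and side of the threshold, 158 fell short of it, 26 newly passed and 27 changed sign. That count does not cover every sign change named above, and those of GND2, TKL2 and ALD3 in spl2 are outside it. Bmh1, and BY4741 in experiments 2 and 3, rest on 1 library each.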
